A study of Macaca mulatta with 12 samples.

Results

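The 2'-5'-oligoadenylate synthetase (OAS) family was followed through macrophages of rhesus macaques (Macaca mulatta), as the 4 genes OAS1, OAS2, OAS3 and OASL out of 32386 genes in the count table. They were taken by name, OAS3 from its symbol and the other members from Ensembl identifiers that a macaque name table pairs with their symbols. All were found, and 3 of them held enough counts to be tested, OAS1 being the exception. On build Mmul_8.0.1, OAS1, OAS3 and OAS2 are neighbours on chromosome 11. The authors' deposited tables place OAS1 (ENSMMUG00000012782) from 112949175 to 112971458, OAS3 (ENSMMUG00000046639) from 112977783 to 113006746 and OAS2 (ENSMMUG00000008505) from 113012695 to 113045940, with gaps of 6324 and 5948 bases between them. OASL (ENSMMUG00000006441) lies apart on the same chromosome, from 121274193 to 121294071.

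OAS1, OAS2 and OAS3 are sensors of double-stranded RNA. Once bound to it they join ATP into short 2'-5'-linked oligoadenylates, a second messenger of the antiviral response. OASL shares the OAS fold but, in humans, makes no oligoadenylate; it carries ubiquitin-like repeats at its end and is known there to enhance signalling by the RNA sensor RIG-I and to inhibit the DNA sensor cGAS. All of these genes are induced by interferon, and OASL is also known to be induced directly by the transcription factor IRF3, which Toll-like receptor 4 activates when it meets lipopolysaccharide.

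The cells were blood macrophages sorted as positive for CD14 and CD163 and negative for CD16. The donors were macaques that had received back their own mobilized CD34+ cells after CRISPR/Cas9 treatment, in a model of clonal hematopoiesis with mutant TET2, per the series' title. Cells were taken 4.5 months (early) or 19 months (late) after transplant, plated at 250000 per well and kept for 8 h without stimulus (unstimulated, CTL) or with a double stimulus (stimulated, ACT), interferon-gamma at 20 ng/ml and lipopolysaccharide (LPS) at 100 ng/ml. Both agents appear in the protocol, though the treatment label mentions only LPS. Each of the 4 groups holds 3 libraries, and all come from animals with edited cells, so no group shows what unedited macrophages do. No label says which libraries share an animal or what share of cells carried an edit, so p-values reflect the spread among these libraries alone, and that spread may be technical.

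Libraries held 3910680 to 12972505 counts. Levels are given as CPM, a gene's counts relative to all counts of its library, after TMM scaling, which evens out differences in library composition. They are not divided by transcript length, so they compare a gene with itself across samples and not one gene with another. In a principal component analysis early and late libraries parted on the first component (56% of the variance). Early stimulated library 1 stood apart on the second component (12%), at -44.8 against -2.34 and -1.88 for the other libraries of its group. It held 4602109 counts, against 12972505 and 12934170 in those libraries, and had the lowest TMM factor of all, 0.879. For comparisons that early stimulated library 1 enters, the members' values without it are added. The sort markers were present in every library, CD14 at 1380 to 3218 CPM and CD163 at 507.7 to 1522 CPM. Of other cell types' markers, summed T cell markers (3 of 5 in the table) reached at most 0.974 CPM and B cell markers (all 4) 2.52 to 6.6 CPM. Summed NK cell markers (3 of 5) were at 7.56 to 14.1 CPM, nearly all of it NCR1, and platelet markers (3 of 4) at 1.11 to 3.31 CPM.

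**Figure D1:**
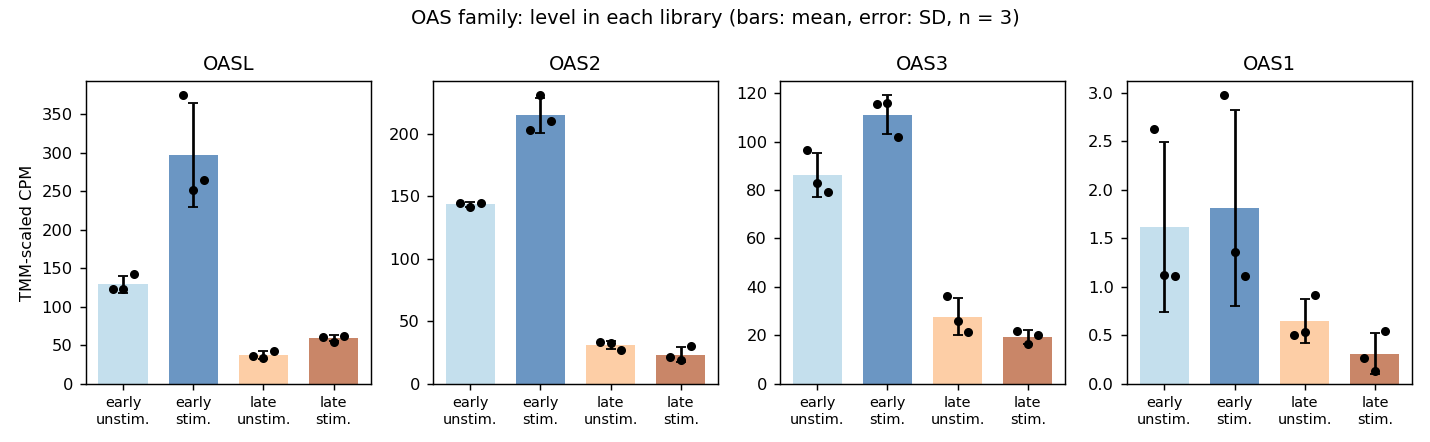
Level of each OAS gene in every library, as TMM-scaled CPM on an axis from 0 that differs between panels. Points are libraries, bars are means and error bars the SD of 3 libraries; for OASL, OAS2 and OAS3 every late library lies below every early one.

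OASL and OAS2 rose on stimulation at 4.5 months, OASL the more steeply of the pair. OASL stood at 123, 123 and 142 CPM in the early unstimulated libraries and at 374, 251 and 264 CPM in the early stimulated ones. The groups did not overlap, and library 1 of the stimulated group was the highest. Its log2 fold change was 1.19 ± 0.14 (SE, a 2.28-fold rise), with an adjusted p of 1.57e-06 (edgeR quasi-likelihood test, Benjamini-Hochberg over all 11826 genes tested). Without early stimulated library 1 the log2 fold change was 1.00 (adjusted p = 8.63e-12, edgeR).

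OAS2, whose product joins 2 catalytic-fold units in one chain in humans, was at 145, 142 and 145 CPM in early unstimulated and 203, 231 and 210 CPM in early stimulated libraries. These groups did not overlap either, and the unstimulated libraries lay within a narrow range. The rise was 1.5-fold, or 0.58 ± 0.13 (SE) on the log2 scale (adjusted p = 0.0065, edgeR), and 0.62 without early stimulated library 1 (adjusted p = 3.07e-05, edgeR). OAS3, the longest of the synthetases, was at 96.4, 82.8 and 79.3 CPM without stimulus and 115, 116 and 102 CPM with it. Every stimulated library lay above every unstimulated one, but the log2 fold change of 0.37 ± 0.15 did not pass the test (adjusted p = 0.151, edgeR), nor did the 0.34 without early stimulated library 1 (adjusted p = 0.0741, edgeR). Of all genes tested, 4.57% were called higher and 2.66% lower in this comparison, and 12.6% had all stimulated libraries above all unstimulated ones.

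OAS1, the smallest synthetase, was close to the limit of detection. It had 18, 12 and 13 counts in early unstimulated libraries and 12, 16 and 13 in early stimulated ones. Late libraries held 2, 4 and 6 counts without stimulus and 2, 1 and 5 with it. Summed over each group and set against sequencing depth, the stimulated to unstimulated ratio was 1.02 early (95% exact interval 0.645 to 1.59) and 0.491 late (0.174 to 1.31), intervals that cover counting error only. As a log2 ratio of mean CPM the early value for OAS1 was 0.16, and -0.39 without early stimulated library 1. No change of OAS1 on stimulation was detectable at this depth. How reads that match more than one of these related neighbouring genes were assigned is not given in the sources used here, so the split of counts among OAS1, OAS2 and OAS3 is uncertain.

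At 19 months the response of OASL and those of the synthetases pointed in different directions, and none passed the test. OASL was at 36.1, 33.5 and 42.8 CPM in late unstimulated and 60.6, 54.5 and 62.6 CPM in late stimulated libraries. The groups did not overlap. Its log2 fold change was 0.66 ± 0.15 (SE, unadjusted p = 0.000185, adjusted p = 0.266, edgeR), the 8th smallest p of all genes tested. OAS2 was at 33, 32.3 and 27.3 CPM without stimulus and 21.3, 18.7 and 29.96 CPM with it, so that 1 stimulated library overlapped the unstimulated range. For OAS3 the levels were 36.1, 25.7 and 21.4 CPM against 21.8, 16.3 and 20.1 CPM, with overlap as well. The log2 fold changes were -0.40 ± 0.15 for OAS2 and -0.49 ± 0.17 for OAS3 (adjusted p = 0.998 for both, edgeR).

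The late comparison called 0 of 11826 genes (0%) with edgeR, while 527 had an unadjusted p under 0.05 and DESeq2 called 15. All late stimulated libraries lay above all unstimulated ones for 5.44% of the genes tested. The OASL call depended on the other samples in the fit and on the filter on low counts, for reasons that were not tested. It passed without early stimulated library 1, which is in neither late group but adds to the shared estimate of spread (log2 fold change 0.66, adjusted p = 0.000113, edgeR), and 29 genes were then called. DESeq2 gave OASL 0.65 (adjusted p = 0.0369), and a fit on the late libraries alone gave 0.66 (adjusted p = 0.0299, edgeR).

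**Figure D2:**
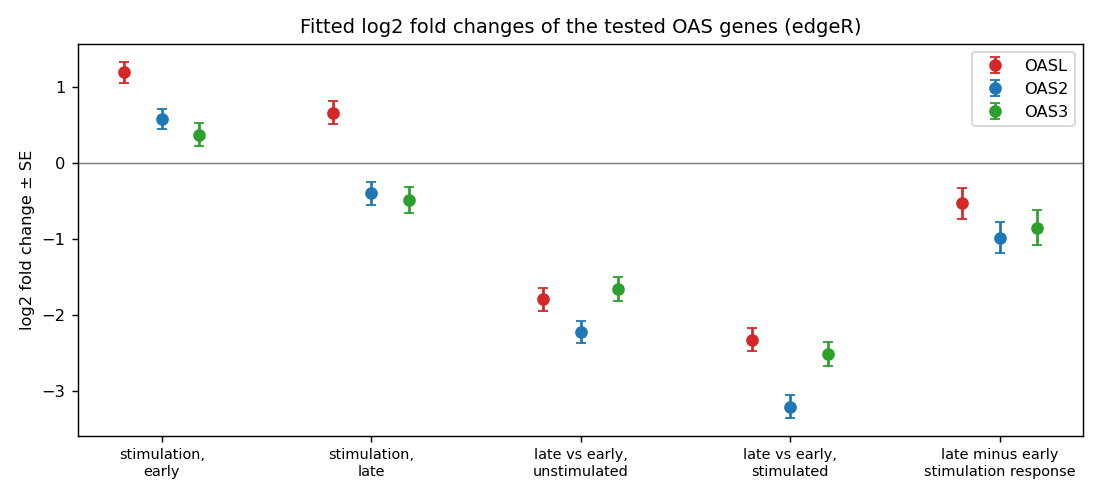
Fitted log2 fold change with its SE for OASL, OAS2 and OAS3 in the 5 comparisons, from edgeR over 12 libraries. On late stimulation OASL lies above 0 (0.66) and OAS2 and OAS3 below it (-0.40 and -0.49), and in both comparisons of late with early all lie below -1.

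A direct comparison of OASL with each synthetase was made within libraries, where scaling between libraries cancels. The log2 ratio of OASL to OAS2 counts, set to a mean of 0 in early unstimulated libraries, was -0.08, -0.05 and 0.12 there and 1.03, 0.28 and 0.48 in early stimulated libraries. Late unstimulated libraries were at 0.28, 0.21 and 0.80 and late stimulated ones at 1.66, 1.70 and 1.22. Within each time the groups did not overlap. Stimulation raised the ratio 1.51-fold early and 2.14-fold late, and by 0.85 on the log2 scale over both times (exact permutation test within times, two-sided, p = 0.005, the smallest that 400 arrangements can give; adjusted over the 3 pairs, p = 0.0075).

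The ratio of OASL to OAS3 behaved much the same. On the same scale it was -0.24, -0.02 and 0.25 early without stimulus, 1.11, 0.53 and 0.79 early with it, -0.59, -0.20 and 0.41 late without it and 0.88, 1.15 and 1.05 late with it. The increase was 1.75-fold early and 2.23-fold late, or 0.98 on the log2 scale over both times (exact permutation test, p = 0.005, adjusted p = 0.0075). For OASL over OAS1 it was 2.03-fold early, where the groups overlapped, and 3.39-fold late, and 1.39 on the log2 scale over both times (exact permutation test, p = 0.01, adjusted p = 0.01), though the OAS1 counts behind it are few. Taken one time at a time, 3 libraries against 3 cannot give an exact p below 0.1. That value was reached in 5 of the 6 tests by time, and none of those 6 could have passed. Without early stimulated library 1 the log2 increases over both times were 0.74 for OAS2, 0.91 for OAS3 and 1.52 for OAS1, and all 3 still passed.

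**Figure D3:**
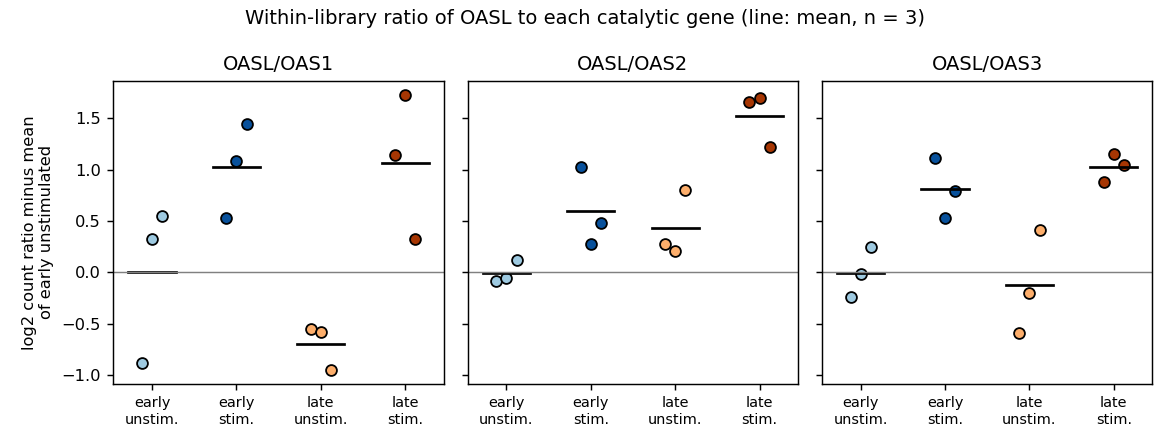
Log2 ratio of OASL counts to those of OAS1, OAS2 or OAS3 in each library, relative to the mean of early unstimulated libraries, with lines at group means of 3 libraries. Stimulated libraries lie above the unstimulated libraries of their time in every panel except OASL/OAS1 early, where the groups overlap.

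The response to stimulation itself differed between times for OAS2. Its late minus early difference in log2 fold change was -0.98 ± 0.20 (SE, adjusted p = 0.00888, edgeR interaction test), the change going from 0.58 early to -0.40 late. The call was lost without late stimulated library 2 (-0.85, adjusted p = 0.0541, edgeR), and the value was -1.01 without early stimulated library 1 (adjusted p = 3.98e-05, edgeR). OAS3 had a difference of -0.85 ± 0.23 that narrowly failed (adjusted p = 0.0594, edgeR), and it passed in 5 alternatives, among them without early stimulated library 1 (-0.82, adjusted p = 0.00719) and without late unstimulated library 3 (-1.01, adjusted p = 0.0172). OASL had the smallest of these differences, -0.53 ± 0.20 (adjusted p = 0.284, edgeR), and -0.33 without early stimulated library 1. The interaction was called in the lower direction for 1.23% of all genes tested.

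Against these responses the fall between the times was large, in both states of the cells. Unstimulated OASL went from 129.3 ± 10.9 CPM early to 37.5 ± 4.79 CPM late (SD, n = 3 each), a 3.45-fold fall (log2 -1.79 ± 0.15 SE, adjusted p = 1.27e-09, edgeR). OAS3 fell 3.16-fold (log2 -1.66 ± 0.16, adjusted p = 1.75e-08, edgeR) and OAS2 4.66-fold. In stimulated cells OASL fell 4.99-fold, from 296.6 ± 67.7 to 59.2 ± 4.21 CPM (SD, n = 3 each; log2 -2.32 ± 0.15 SE, adjusted p = 1.18e-11, edgeR). OAS3 fell 5.71-fold and OAS2 9.18-fold there. Without early stimulated library 1 the log2 values in stimulated cells were -2.14 for OASL, -2.51 for OAS3 and -3.25 for OAS2, and all 3 still passed. All 3 tested members fell in both comparisons, in which 19.8% (unstimulated) and 19.7% (stimulated) of all genes tested were called lower. The fall was not particular to them. Of 20 other interferon-stimulated genes tested, 15 were called lower in unstimulated cells (median log2 -0.97) and 18 in stimulated cells (median -1.79). Of 16 interferon signalling genes tested, 10 and 11 were called lower. Among the 11 is IFNB1, which only the early stimulated libraries carried past the filter on low counts. The filter thus favoured its fall. In a fit of the late libraries alone, 14 of these 16 genes and 19 of the 20 others passed that filter. Every late library of the 3 OAS genes lay below every early library of the same treatment, as it did for 26.1% of all genes tested in unstimulated and 24.5% in stimulated cells. Late stimulated libraries of OASL, at most 62.6 CPM, stayed below the lowest early unstimulated library at 123 CPM.

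The direction of these falls was the same under each scaling tried, including upper-quartile factors, which moved the median of all genes from 0.02 to 0.15 in unstimulated and from 0.05 to 0.15 in stimulated cells on the log2 scale. With those factors 63.3% of the calls in unstimulated and 61% in stimulated cells were higher, against 51.3% and 49.3% with TMM. In the authors' deposited table for unstimulated cells the log2 fold change of late over early is -1.77 for OASL, -2.21 for OAS2 and -1.64 for OAS3. The authors' deposited table for stimulated cells gives -2.32 for OASL, -3.2 for OAS2, -2.51 for OAS3 and -2.45 ± 0.93 (SE, adjusted p = 0.0384) for OAS1. By summed counts the late to early ratio of OAS1 was 0.219 in stimulated cells (8 against 41 counts, 95% exact interval 0.0885 to 0.472) and 0.452 in unstimulated cells (12 against 43 counts, 0.217 to 0.872). As a log2 ratio of mean CPM the value for OAS1 in stimulated cells was -2.54, and -1.99 without early stimulated library 1. With no filter on low counts edgeR gave OAS1 -2.38 ± 0.75 (adjusted p = 0.0104) and -1.29 ± 0.70 (adjusted p = 0.173) for these comparisons.

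Cell markers moved with time beside these falls. The summed level of the 5 markers of the sorted cells was 7978 to 9217 CPM over the early libraries and 4976 to 5945 CPM over the late ones. Nearly all of it was LYZ, CD14 and CD163. MRC1, also among the 5, was low and went the other way without stimulus, at 1.02 to 2.19 CPM early and 2.73 to 4.11 CPM late. With stimulus its early and late ranges overlapped. Neutrophil markers (4 of 5 in the table) summed to 516.2 to 608.7 CPM early and 255.8 to 341.2 CPM late, nearly all of it CSF3R, which monocytes also express. Markers of plasmacytoid dendritic cells (3 of 5 in the table) summed to 204 to 297.1 CPM early and 141.2 to 172 CPM late, nearly all of it IRF8 and TCF4, while CLEC4C, which defines those cells, reached at most 0.504 CPM. Erythroid markers (3 of 4 in the table), nearly all HBA, summed to 21.5 to 32.9 CPM early and 10.1 to 18.7 CPM late. CD16 monocyte markers (2 of 4 in the table) were at 31.4 to 42.1 CPM early and 36.8 to 50.2 CPM late. Nearly all of that was FCGR3, the gene of CD16, so its RNA was present in every library though the cells were sorted as negative for CD16. The part of these markers in the OAS results was not tested, and in bulk RNA fewer cells of a type and less RNA per cell cannot be told apart. Dates of library preparation or sequencing are absent from the labels, so the 2 times and a batch that coincides with them cannot be told apart either.

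Of the genes tied to oligoadenylates, ABCE1, which also recycles ribosomes, was higher late, by a log2 value of 0.72 ± 0.15 without stimulus (adjusted p = 0.000549) and 0.71 ± 0.15 with it (adjusted p = 0.00068, edgeR). PDE12, which degrades oligoadenylates, passed in none of the 5 comparisons (-0.04 to 0.29), and AKAP7 was too low to be tested.

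Of genes that work beside the OAS proteins, 3 sensors or regulators of RNA sensing rose on early stimulation. In a list of 12 partners of the pathway, 11 were tested. Over all genes tested, 4.57% were called higher and 2.66% lower on early stimulation. Among the 11 partners 3 rose and none fell (median log2 fold change 0.22, against 0.00 over all genes tested). These were DHX58 (LGP2, a helicase that modulates RNA sensing) at 1.07 ± 0.13, RIGI (the RNA sensor RIG-I) at 0.81 ± 0.13 and IFIH1 (the RNA sensor MDA5) at 0.67 ± 0.13, with adjusted p = 1.62e-06, 0.000146 and 0.00107 (edgeR). Without early stimulated library 1 these values were 0.92, 0.96 and 0.78, and 5 partners then rose and 1 fell. DHX58 was at 136 to 148 CPM early without stimulus and 270 to 364 CPM with it. The DNA-sensing pair CGAS (0.28) and STING1 (-0.22), the kinase and double-stranded RNA sensor EIF2AK2 (0.36), the RNA editor ADAR (0.22), the adaptor MAVS (-0.16) and the ubiquitin ligase TRIM25 (-0.05) did not pass. On late stimulation none of the 11 passed (median -0.01), with RIGI at 0.34, DHX58 at 0.33 and IFIH1 at -0.01.

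Between the times, 19.8% of all genes tested were called lower in unstimulated and 19.7% in stimulated cells. Of the 11 partners tested, 7 were lower and 1 higher in unstimulated cells (median -0.57, against 0.02 over all genes tested). In stimulated cells 8 of them were lower and 1 higher (median -1.04, against 0.05). ABCE1 was the higher one in each case. STING1 fell most, from 216 to 240 CPM down to 64.8 to 88.2 CPM in unstimulated cells (log2 -1.61 ± 0.13, adjusted p = 1.16e-09, edgeR). RIGI did not pass in unstimulated cells (-0.25, adjusted p = 0.145) but did in stimulated ones (-0.72, adjusted p = 0.000145, edgeR). The fall of EIF2AK2 in unstimulated cells (-0.51, adjusted p = 0.0307) was lost in 5 alternatives, among them without early unstimulated library 1 (adjusted p = 0.123) and without late unstimulated library 2 or 3 (adjusted p = 0.0642 and 0.162). That of CGAS in stimulated cells (-0.54, adjusted p = 0.02) was lost in 5 as well, among them without early stimulated library 2 or 3 or late stimulated library 2 (adjusted p from 0.0723 to 0.099, edgeR).

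Of the interferon signalling genes 16 of 17 were tested. Over all genes tested, 4.57% were called higher and 2.66% lower on early stimulation, and 0% on late stimulation. Of the 16 signalling genes, 3 rose and 1 fell on early stimulation (median log2 fold change 0.21), and none passed on late stimulation (median -0.08). With 1 library left out, 1 to 5 of these genes rose, 1 without any 1 early unstimulated library and 5 without early stimulated library 1. SOCS3, a feedback inhibitor of cytokine receptors, rose by 0.67 ± 0.12 (adjusted p = 0.000457, edgeR), and by 0.59 without that stimulated library. IFNB1, the gene of interferon-beta, went from 0.279 to 0.427 CPM without stimulus to 1.71 to 1.98 CPM with it early (2.41 ± 0.63, adjusted p = 0.0164, edgeR), a call lost without any 1 of the early unstimulated libraries or without early stimulated library 2 or 3 (adjusted p from 0.052 to 0.0994). These levels are near those of OAS1, which was too low to be tested. Only the early stimulated libraries carried IFNB1 past the low-count filter, so the filter favoured this rise. IRF3, which drives IFNB1 and OASL, fell by 0.56 ± 0.17 (adjusted p = 0.0357), and IRF9, the DNA-binding subunit of the interferon-activated complex ISGF3, rose by 0.42 ± 0.12 (adjusted p = 0.0292, edgeR). Both calls were lost without early unstimulated library 1, 2 or 3 (adjusted p from 0.0828 to 0.156), and that of IRF3 also without early stimulated library 2 or 3 or late stimulated library 2 or 3 (adjusted p from 0.0515 to 0.179).

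Of the other interferon-stimulated genes 20 of 23 were tested. On early stimulation 7 rose (MX1, IFIT3, ISG20, RSAD2, IFI6, XAF1 and CMPK2) and none fell (median 0.42), where 4.57% of all genes tested were called higher. That count rested on single libraries. It was 4, 3 and 4 without early unstimulated library 1, 2 or 3, 4 without early stimulated library 2 or 3, 13 without early stimulated library 1 and 4 with only the compared groups. MX1, RSAD2, XAF1 and CMPK2 lost their calls in 2, 5, 7 and 13 of 18 alternatives, whereas IFIT3, ISG20 and IFI6 lost them in none. On late stimulation none passed and 7 of 20 had a positive log2 fold change (median -0.08), while 2 were called lower with DESeq2, 1 lower with only the compared groups, and 1 higher and 2 lower without early stimulated library 1. ISG20, an exonuclease that degrades viral RNA, rose early by 1.07 ± 0.13 (adjusted p = 3.2e-06), and IFIT3, a partner in the IFIT complex that binds viral RNA, by 0.86 ± 0.12 (adjusted p = 1.82e-05, edgeR). Without early stimulated library 1 these values were 0.92 and 0.93. Late, IFIT3 was at 0.45 ± 0.12 and the antiviral GTPase gene MX1 at -0.57 ± 0.11 (adjusted p = 0.815 and 0.0691, edgeR). These 2, picked from the 20, had opposite signs and neither passed. Against 1.23% of all genes, the interaction was called lower for 4 of these 20, for 1 of 16 signalling genes and for 1 of 11 partners. With 1 library left out the counts ran from 1 to 9, from 0 to 2 and from 0 to 5, each highest without early stimulated library 1.

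**Figure D4:**
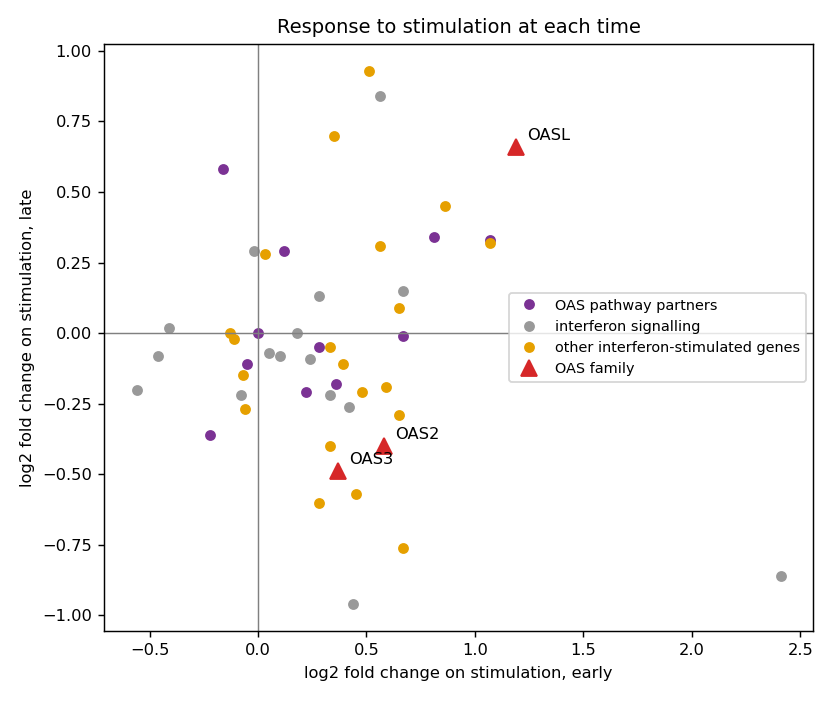
Log2 fold change on stimulation early (horizontal) and late (vertical) for the 3 tested OAS genes (triangles) and the tested genes of the related lists (circles). OASL lies above 0 on both axes, while OAS2 (0.58 and -0.40) and OAS3 (0.37 and -0.49) lie above 0 early and below it late.

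The genes most like each member over the 12 libraries were sought among tested, named genes with a mean of at least 5 CPM (6700 for OAS1 and, each left out of its own comparison, 6699 for OAS2, OAS3 and OASL). Likeness was the root mean square difference between profiles of log2(CPM + 1), each centred on its own mean, as a description without a test. OAS2 was nearest to IFIT5 (0.282), MX1 (0.343) and S100A9 (0.356), and OAS3 to IFIT5 (0.175), MX1 (0.208) and CMPK2 (0.23). OASL was nearest to other genes, HELZ2 (0.246), IFIT3 (0.264) and APOBEC3A (0.331). Its distance to OAS2 was 0.591 and to OAS3 0.553, whereas OAS2 and OAS3 lay 0.372 apart. Because few counts and the added 1 flatten the profile of OAS1, its nearest genes UQCRC1, PLOD1 and DDOST (0.215 to 0.221) describe that low profile only.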

How the data were processed

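Total RNA of sorted macrophages was copied to cDNA with SMART-Seq V4 and sequencing libraries were prepared with Nextera XT (source: the labels' protocols); these kits do not mark the strand. The deposited table holds raw counts per gene. The submitters' processing notes name bcl2fastq and build Mmul_8.0.1, while aligner and counter are not stated in any source used. The authors also deposited 2 tables of late against early, which give a log2 fold change, its standard error and an adjusted p-value per the file headers, with no tool stated. No column of counts was left out.

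Counts were tested with edgeR 4.0.16 in R 4.3.3 (TMM factors 0.879 to 1.1, filterByExpr by group, robust quasi-likelihood F test) on all 12 libraries with a coefficient per group, over 11826 genes and 5 contrasts, with Benjamini-Hochberg adjustment and a threshold of 0.05. SE values were obtained from the log2 fold change and its F statistic. DESeq2 1.42.0 was an alternative. Within-library ratios used counts + 0.5 and exact permutations. Intervals cover counting error only, since counts were summed over the libraries of a group. Reads carry no molecular identifiers, so copies made by amplification could not be told apart in these counts. The fit was tried on simulated counts with the same spread setting for every gene and no deviating library. That trial does not cover the effect of early stimulated library 1. Same-numbered libraries deviated together (correlation over 0.1) in 1 of 18 pairs. That count cannot decide whether they are paired, as no differently numbered pairs were set beside them. No label pairs libraries by replicate number, so the main fit did not pair them, and a fit with a replicate block was an alternative.

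The members and lists were chosen with earlier results of these data known. Named were the 4 members, the tested pathway partners, up to 4 genes with the smallest p of each other list per comparison (not all printed for late against early), and for each member its 3 most similar genes. A gene first listed beside these partners is not reported here and was left out of the list's counts.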

Additional observations from a re-analysis of the deposited data

Results flagged for a closer look

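The response to stimulation differed between the times by the interaction test itself (edgeR, adjusted p under 0.05) for OAS2 and for 6 related genes, each with a lower response late. OAS2 was 1 of 3 tested members. The others were 1 of 11 partners, 1 of 16 signalling genes and 4 of 20 other interferon-stimulated genes. The interaction was called lower for 1.23% of all genes tested. Genes of the last 2 lists were named for their small p, so their values are picked ones. The late minus early difference in log2 fold change was -0.98 for OAS2 (adjusted p = 0.00888), and its response was 0.58 early, with 3 of 3 stimulated libraries above all unstimulated ones, and -0.40 late, where the groups overlapped. DHX58 had a difference of -0.74 (adjusted p = 0.0325), from 1.07 early to 0.33 late. The difference was -1.02 for MX1 (adjusted p = 0.000196), -0.73 for MX2 (adjusted p = 0.0118), -0.88 for IFIT5 (adjusted p = 0.0369), -0.75 for ISG20 (adjusted p = 0.0361) and -0.68 for IRF9 (adjusted p = 0.0379, edgeR). With 1 library left out in turn MX1 kept its call throughout (adjusted p up to 0.00243, edgeR). OAS2 lost its call in 1 of the 12 cases, without late stimulated library 2 (adjusted p = 0.0541, edgeR). DHX58 lost its call in 7 of the 12 cases (adjusted p up to 0.122). Those were without any 1 early unstimulated library, late unstimulated library 1 or 2, or late stimulated library 1 or 2. IRF9 lost its call in 9 cases, IFIT5 in 9, ISG20 in 8 and MX2 in 4 (adjusted p up to 0.136, 0.158, 0.127 and 0.0659).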

How the results depend on the processing

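Over 267 alternative values for the 3 tested members in 5 comparisons, none changed direction, and 257 stayed on the same side of the threshold. The exceptions concern OASL on late stimulation and the interactions of OAS2 and OAS3. OASL on late stimulation passed with no low-count filter and in a fit of only the compared groups (0.66 for both, adjusted p = 0.0248 and 0.0299), and with DESeq2 (0.65, adjusted p = 0.0369). Leaving out 1 library gave it 0.58 to 0.77. The OAS3 interaction passed with upper-quartile factors (-0.88, adjusted p = 0.0448), no filter (-0.85, adjusted p = 0.02) and DESeq2 (-0.87, adjusted p = 0.0145), and ran from -1.01 to -0.65 with 1 library left out. That of OAS2 ran from -1.21 to -0.85. The cause was not tested.

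Counts of called genes depended on the samples fitted. For early stimulation 855 genes were called, 503 with only the compared groups and 464 to 1554 with 1 library left out (485, 464 and 483 without early unstimulated library 1, 2 or 3, and 1554 without early stimulated library 1). For late stimulation the 0 calls became 2 with upper-quartile factors, 5 without the filter, 10 with only the compared groups, 15 with DESeq2 and 0 to 29 with 1 library left out. The interaction's 167 calls became 312 with DESeq2, and 95 to 546 with 1 library left out.

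The fit with the replicate block changed no call of a member: OASL was at 1.18 on early stimulation (adjusted p = 5.15e-06), and OAS2 at -0.99 in the interaction (adjusted p = 0.0237, edgeR). It ended the interaction calls of DHX58, IRF9, IFIT5 and ISG20 (adjusted p from 0.0617 to 0.0741) and, on early stimulation, the fall of IRF3 (adjusted p = 0.058) and the rise of CMPK2 (adjusted p = 0.0812). With libraries paired by number, the ratios of OASL to OAS1, OAS2 and OAS3 rose by 1.39, 0.85 and 0.98 on the log2 scale (exact sign-flip permutation, p = 0.0312 for each, the smallest that 6 pairs can give, and the same when adjusted). The ratios passed under every pseudocount and library left out that was tried. OAS1 is limited by depth.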
